A study of Mus musculus with 6 samples.

Results

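The complement activation components were taken from the deposited expression table by gene symbol, from a list of 10 genes that encode proteases, substrates and recognition chains of the cascade. Of these, 9 had a row among the 16191 rows of the table, namely C1R, C1S, C1RL, C2, C3, C5, CFD, MASP1 and C1QB, and CFB was not analysed here. Per the labels, 3 libraries came from RPE-choroids (retinal pigment epithelium with the choroid) of C57BL/6J mice given AAV-PDGF-D, an adeno-associated virus carrying human PDGF-D, and 3 from mice given AAV-GFP as the control. All had a subretinal injection and were sampled 4 weeks later. The methods name the human VMD2 promoter, which is active in the pigment epithelium, as the driver of the transgene. The mice were young adults, and their age is not in the labels. The study is concerned with PDGF-D and complement in neovascular eye disease, and the comparison asks whether genes that activate complement differed in transcript level between the labels.

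Several facts stand against the labels and hold for every value below. The rows are human genes, 15504 of them with a human Ensembl ID and symbol, although the labels name mouse tissue, so the values describe the human rows only and the groups are called by their labels. The PDGFD row was at 5.24, 6.28 and 6.36 FPKM in the libraries labelled AAV-PDGF-D, against 6.87, 6.56 and 6.86 FPKM in those labelled AAV-GFP, so the row of the vector's gene was not higher with its own label. FPKM are fragments per kilobase of transcript, scaled to the mapped fragments of the library, which makes levels comparable between genes. The libraries labelled AAV-PDGF-D summed to between 509530 and 518405 FPKM, above those labelled AAV-GFP at 499393 to 503934 FPKM. The number of reads is unknown. Hemoglobin chains were present in AAV-PDGF-D replicate 3 and AAV-GFP replicate 1, with HBA1 at 219 and 168 FPKM and HBA2 at 123 and 107 FPKM, and at or near 0 in the other 4 libraries. It is not stated that libraries under the same label are separate animals, so p-values measure only the spread between these libraries.

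Complement is a cascade of plasma and tissue proteins that marks particles for uptake, recruits leukocytes and perforates membranes. In the classical pathway C1q binds its target and turns on the proteases C1r and C1s, which then cut C4 and C2 to build a convertase for C3. In the lectin pathway the MASP proteases take the place of C1r and C1s, while in the alternative pathway factor D cuts factor B bound to C3b. C3 is where all the routes meet, and C5 opens the membrane attack complex. Most circulating complement comes from the liver, but epithelial cells and fibroblasts make C1r, C1s and C3 locally, and C1q is made chiefly by macrophages. The retinal pigment epithelium is known as a local source of complement proteins and regulators.

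The proteases of the C1 complex were the most abundant members, and the recognition chain C1QB was barely detected. Averaged over the 6 libraries, C1S was at 27.8 FPKM, C1R at 20.7 FPKM and C1RL at 13.7 FPKM. C2 followed at 4.4 FPKM, C3 at 3.32 FPKM, CFD at 2.22 FPKM and C5 at 0.329 FPKM. C1S lay at or above 80.8% of all rows, and C5 at or above 21.2%. The order C1S, C1R, C1RL, C2 and the order C3, CFD, C5 held without overlap between neighbours in either group. C2 and C3 overlapped in both groups, as did C1QB and MASP1. C1R, C1S and C1RL together made up 85.1 ± 1.16% of the summed FPKM of the 9 genes in the libraries labelled AAV-PDGF-D, against 86.1 ± 1.19% in those labelled AAV-GFP (SD, n = 3 each).

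**Figure D1:**
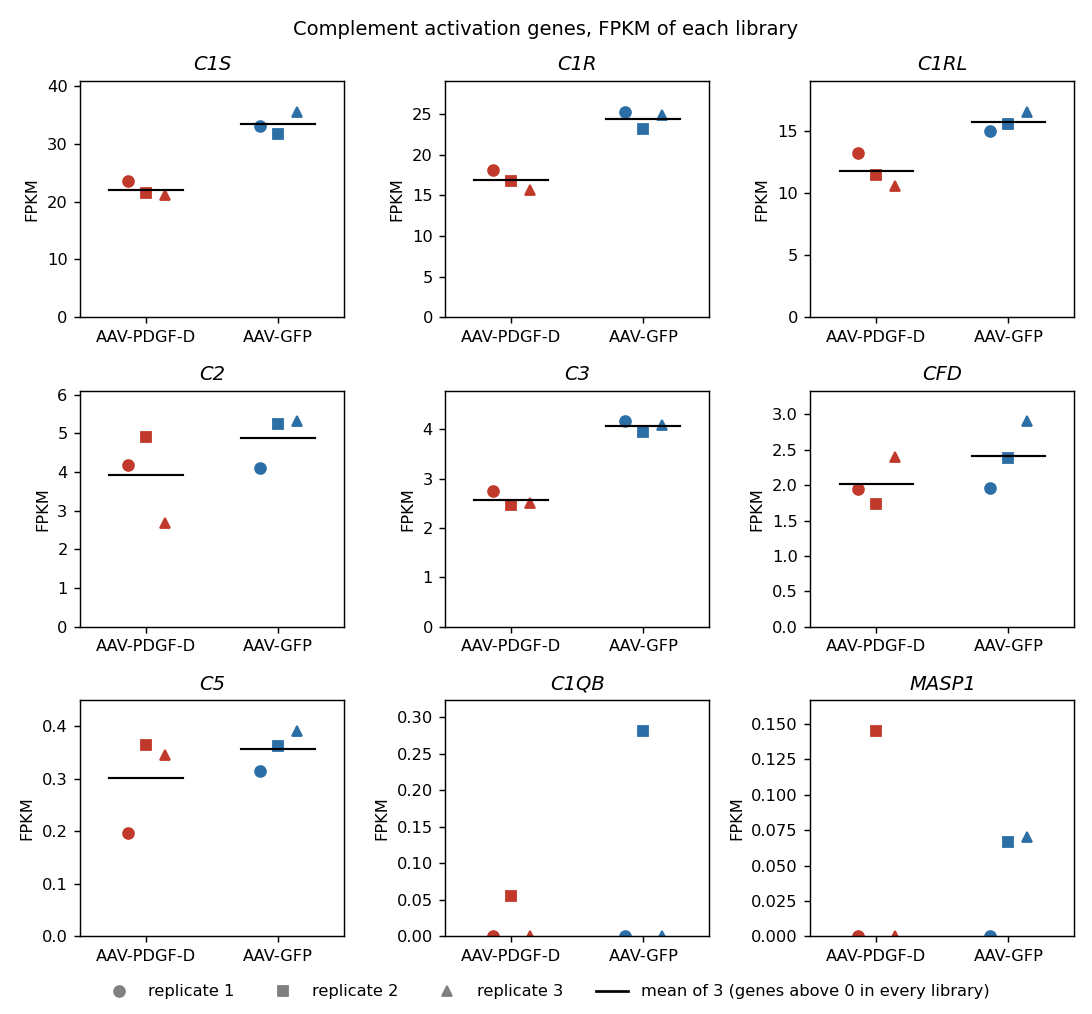
FPKM of each complement activation gene in each library, with AAV-PDGF-D libraries (red) left of AAV-GFP libraries (blue), 1 marker shape per replicate and a black bar at the mean of 3 for genes above 0 in every library; each panel has its own axis from 0. For C1S, C1R, C1RL and C3 the 3 red points lie below the 3 blue ones, with C1S at 21.2 to 23.5 FPKM against 31.7 to 35.6 FPKM, and the groups overlap for the other genes.

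C1S, the protease of C1 that cuts C4 and C2, was less abundant with the label AAV-PDGF-D. It was at 23.5, 21.6 and 21.2 FPKM there, against 33.2, 31.7 and 35.6 FPKM with the label AAV-GFP. The groups did not overlap, and the gap between the nearest libraries was larger than the range within either group. The means were 22.1 ± 1.24 and 33.5 ± 1.98 FPKM (SD, n = 3 each), a ratio of 0.66. On the log2(FPKM + 0.1) scale, on which all fold changes here are given and which understates those of low genes, the difference was -0.60 (95% confidence interval -0.75 to -0.45, adjusted p = 0.0017 from limma). C1S was thereby called lower, where a call requires that the adjusted p not exceed 0.1, that the change reach 1.5-fold (0.585 in log2 units) and that the mean FPKM reach 1. C1S lay so close to the fold threshold that the call was lost without AAV-PDGF-D replicate 2 (-0.58), AAV-PDGF-D replicate 3 (-0.57) or AAV-GFP replicate 3 (-0.55).

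C1R, which activates C1s, followed the same pattern at a lower level. C1R was at 18.2, 16.8 and 15.6 FPKM in the libraries labelled AAV-PDGF-D, against 25.3, 23.1 and 24.9 FPKM in those labelled AAV-GFP, again with no overlap. Its log2 fold change of -0.54 (95% confidence interval -0.70 to -0.37, adjusted p = 0.00319 from limma) passed the adjusted p but not the fold threshold. C1RL, a C1r-like serine protease, was at 13.2, 11.4 and 10.6 FPKM with the label AAV-PDGF-D and at 15, 15.5 and 16.5 FPKM with the label AAV-GFP. AAV-PDGF-D replicate 1 came nearest to the other group, and the groups did not overlap. The log2 fold change of C1RL was -0.42 (95% confidence interval -0.63 to -0.21, adjusted p = 0.0159 from limma), past the adjusted p and short of the fold threshold.

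C1R and C1S stayed close to one ratio in all 6 libraries. The ratio of C1R to C1S FPKM was 0.772, 0.779 and 0.736 with the label AAV-PDGF-D, against 0.762, 0.731 and 0.7 with the label AAV-GFP. The groups overlapped, and the mean difference of 0.061 on the log2 scale gave p = 0.2 in a two-sided exact permutation test, in which 3 against 3 libraries cannot go below 0.1. The genes of both proteases and of C1RL are neighbours in the human genome.

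C3, the substrate on which the pathways converge, had the largest fold change of the 7 genes that could be fitted. C3 was at 2.76, 2.47 and 2.5 FPKM in the libraries labelled AAV-PDGF-D, against 4.16, 3.95 and 4.09 FPKM in those labelled AAV-GFP. The replicates lay close together, with coefficients of variation of 6.25% and 2.63%, and the groups did not overlap. The log2 fold change of -0.64 (95% confidence interval -0.87 to -0.41, adjusted p = 0.0055 from limma) was called lower, and C3 remained called with any single library left out. With a pseudocount of 1, which weighs on a gene at this level, the value was -0.50 and the call was lost.

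C2, the classical and lectin pathway protease that joins C4b in the C3 convertase, did not pass the test. It was at 4.17, 4.92 and 2.69 FPKM with the label AAV-PDGF-D and at 4.1, 5.23 and 5.31 FPKM with the label AAV-GFP. The libraries labelled AAV-PDGF-D spread widely, with a coefficient of variation of 28.9%, and overlapped the others. The log2 fold change of -0.34 had a 95% confidence interval of -0.83 to 0.15 (adjusted p = 0.297 from limma). C2 lies beside CFB in the genome, and how reads of neighbouring genes were assigned is not given in the sources used here.

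CFD encodes factor D, the protease that starts the alternative pathway and that adipocytes are known for secreting. Its FPKM were 1.94, 1.73 and 2.39 with the label AAV-PDGF-D, against 1.97, 2.38 and 2.9 with the label AAV-GFP. The groups overlapped, and the log2 fold change of -0.24 had a 95% confidence interval of -0.65 to 0.17 (adjusted p = 0.383 from limma). C5, the precursor of C5a and C5b, was low, at 0.198, 0.364 and 0.345 FPKM with the label AAV-PDGF-D and 0.315, 0.364 and 0.391 FPKM with the label AAV-GFP. It was too low for a call, and its log2 fold change of -0.21 had a 95% confidence interval of -0.85 to 0.44, so a change of the size seen for C3 lies within the interval.

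The recognition chain C1QB and the lectin pathway protease MASP1 were close to absent. C1QB, a chain of C1q, gave 0.0555 FPKM for AAV-PDGF-D replicate 2, against 0.281 FPKM for AAV-GFP replicate 2, and was listed at 0 in the other 4 libraries. MASP1, the first protease of the lectin pathway, was at 0.145 FPKM in AAV-PDGF-D replicate 2, against 0.0668 and 0.0702 FPKM in AAV-GFP replicates 2 and 3, and was listed at 0 in the remaining 3. Both had a mean under 0.1 FPKM and were not tested. A difference in either was not detectable at these levels.

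**Figure D2:**
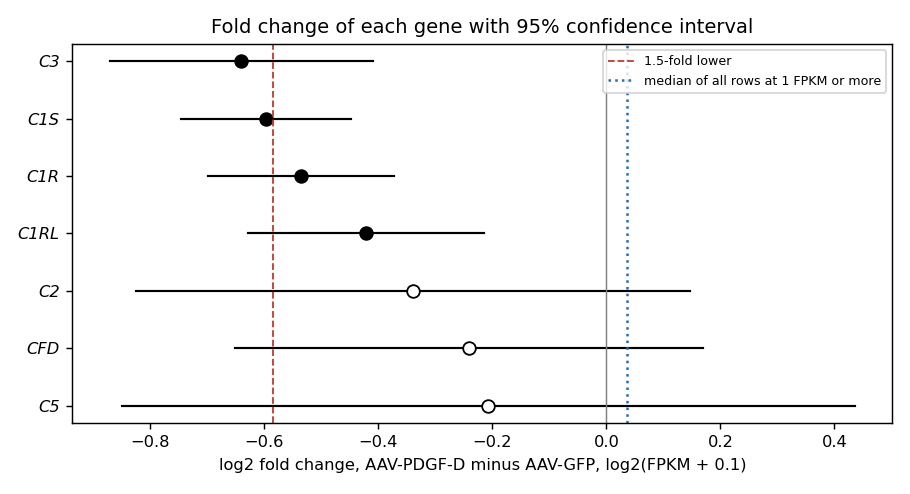
log2 fold change (AAV-PDGF-D minus AAV-GFP) of the 7 genes with a mean of at least 0.1 FPKM, with 95% confidence intervals from limma; filled points passed an adjusted p of 0.1, the dashed line marks 1.5-fold lower and the dotted line the median of all rows at 1 FPKM or more (0.037). All 7 points lie below 0, the intervals of C3, C1S, C1R and C1RL exclude 0, and those of C2, CFD and C5 cross it. Of the 11444 rows at 1 FPKM or more, 4941 had a negative log2 fold change.

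Of the 9 genes, 7 reached the mean of 0.1 FPKM needed for the fit and 6 reached 1 FPKM and so could be called. Of those 6, C1S and C3 were called lower, where 1.75% of the 11444 rows that could be called were lower, and 0 were called higher, where 2.01% of rows were. Scaling to respiratory chain genes shifted the median of all rows to -0.098. It turned the split of all calls to 428 lower and 144 higher, against 200 and 230 as reported. Scaling each library to the same sum (TPM) gave 323 and 252, and scaling by median of ratios gave 252 and 193. By the adjusted p alone, 4 of the 6 were lower (C1R, C1S, C1RL and C3), beside 11.7% of all rows, and 0 were higher, beside 20.9% of all rows. The same 4 had every AAV-PDGF-D library below every AAV-GFP library, which 16.4% of rows did, and 0 had every AAV-PDGF-D library above, which 27.3% of rows did. The median log2 fold change of the 6 was -0.48, ranging from -0.64 to -0.24, and that of all 11444 rows was 0.037. As few as 1.66% of rows had a log2 fold change as low as that of C3, 2.03% as low as C1S, 2.82% as low as C1R and 5.04% as low as C1RL.

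Summed over the 9 genes, the libraries labelled AAV-PDGF-D held 64, 59.5 and 55.3 FPKM, against 84, 82.6 and 89.8 FPKM in those labelled AAV-GFP. The groups did not overlap, and the ratio of the means was 0.697 (two-sided exact permutation test, p = 0.1, the smallest that 3 against 3 libraries allow). The sum is led by C1R, C1S and C1RL, each without overlap on its own. Its p therefore adds little to theirs, and the sum says little of the other genes. AAV-PDGF-D replicate 1 was the highest library of its label for 4 of the 6 genes at 1 FPKM or more, and AAV-PDGF-D replicate 3, a library with hemoglobin, the lowest for 4 of them. Without both libraries with hemoglobin, 4 of the 6 genes again passed the adjusted p. Of them 1, C3, was called lower, beside 171 of 11438 rows in that setting. In bulk RNA, fewer cells of a type and less RNA per cell cannot be told apart.

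The other components that act beside the listed genes were mostly low. Of 12 further classical and lectin genes, 9 had a row, 3 reached 1 FPKM and 0 were called in either direction. By the adjusted p 0 were lower and 1 higher, beside 11.7% and 20.9% of all rows. That gene was COLEC12, a scavenger receptor with a collectin domain, at 1.41, 1.57 and 1.92 FPKM with the label AAV-PDGF-D and 1.1, 1.05 and 1.05 FPKM with the label AAV-GFP (log2 fold change 0.56, adjusted p = 0.0439). Over the 19 other settings, COLEC12 missed the adjusted p in 5 and was called higher in 3, among them a pseudocount of 0.01 and leaving out AAV-PDGF-D replicate 1. It missed without AAV-PDGF-D replicate 2 (adjusted p = 0.101), AAV-PDGF-D replicate 3 (0.132) or AAV-GFP replicate 3 (0.107). MASP2, the lectin pathway protease that cuts C4, averaged 1.44 FPKM over the 6 libraries and had a log2 fold change of -0.10 (adjusted p = 0.713). C4A and C4B, near-identical copies whose reads can be split between them, had together 1.29, 1.66 and 1.49 FPKM with the label AAV-PDGF-D, against 1.99, 1.71 and 2.19 FPKM with the label AAV-GFP. Their sum was chosen after the values were seen, so no test of it is given. It did not overlap between groups, though the nearest libraries lay at 1.66 and 1.71 FPKM. Neither copy passed the limma test on its own, with adjusted p of 0.252 and 0.308. Of the terminal pathway genes and properdin, 3 of 7 had a row and all 3 had a mean far below 0.1 FPKM, with C7 and C9, subunits of the membrane attack complex, at 0.00897 and 0.0163 FPKM.

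**Figure D3:**
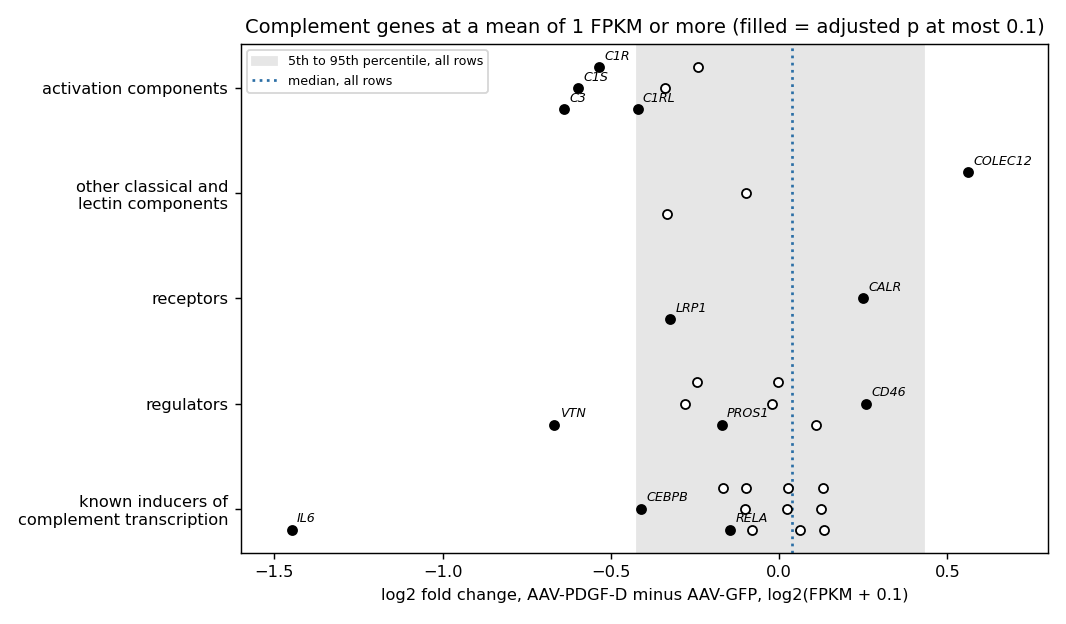
log2 fold change (AAV-PDGF-D minus AAV-GFP) of complement genes with a mean of 1 FPKM or more, by list, each point 1 gene, filled and named where the adjusted p was at most 0.1; grey spans the 5th to 95th percentile of all 11444 rows (-0.42 to 0.43) and the dotted line their median. The activation components all lie left of 0, with C3, C1S and C1R outside the grey span, while receptors, regulators and inducers lie on both sides of 0. Of all 11444 rows, 4941 lie left of 0.

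Most regulators did not pass the test. Of 8 at 1 FPKM or more, 1 was called lower and 0 higher, beside 1.75% and 2.01% of all rows. By the adjusted p 2 were lower and 1 higher, beside the 11.7% and 20.9% of all rows. The called gene was VTN, encoding vitronectin, an inhibitor of the membrane attack complex, at 3.95, 3.93 and 4.02 FPKM with the label AAV-PDGF-D, against 5.85, 6.38 and 6.9 FPKM with the label AAV-GFP. PROS1, encoding protein S, which binds C4b-binding protein, was lower by the adjusted p with a log2 fold change of -0.17, though not past it in 4 of the 19 other settings, and CD46, a cofactor on the cell surface, was higher with 0.26, though not past the adjusted p with respiratory chain scaling. The most abundant, CLU and CD59, had -0.24 and 0.11 and did not pass. CLU passed in 6 of the 19 other settings, TPM and median-of-ratios scaling among them (adjusted p = 0.0779 and 0.0726), and CD59 was at -0.025 with respiratory chain scaling. Both exceeded every activating gene in level, with CLU at 217 FPKM and CD59 at 205 FPKM averaged over the 6 libraries.

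Among 11 receptors with a row, only CALR and LRP1, which serve C1q and many other ligands, reached 1 FPKM. CALR was higher by the adjusted p (0.25), though not past it with 1 of the 19 other settings, and LRP1 lower (-0.33), and neither was called. C3AR1, the receptor of C3a, was singled out after its values were seen. It was at 0.2696, 0.2505 and 0.3439 FPKM with the label AAV-PDGF-D, against 0, 0.0764 and 0.0357 FPKM with the label AAV-GFP. C3AR1 reached the 0.1 FPKM minimum of the fit only through the libraries labelled AAV-PDGF-D, so no test is given, and its mean of 0.163 FPKM was too low for a call. C5AR1, the C5a receptor, was at 0.127, 0.0295 and 0.35 FPKM with the label AAV-PDGF-D and 0.262, 0.0607 and 0.224 FPKM with the label AAV-GFP, which overlap.

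The C1q/TNF family shares the globular domain of C1q but does not start the cascade. Of 16 members with a row, 3 reached 1 FPKM, 1 was called lower and 0 higher, beside 1.75% and 2.01% of all rows. C1QTNF5, a secreted protein of the pigment epithelium whose gene overlaps MFRP, was at 72.1, 67.6 and 68 FPKM with the label AAV-PDGF-D and at 116, 103 and 124 FPKM with the label AAV-GFP (log2 fold change -0.72). It was far more abundant than C1QB. C1QTNF6 had -0.11 and did not pass.

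Genes known to raise complement transcription in other settings were also examined. Of 13 such genes at 1 FPKM or more, 1 was called lower and 0 higher, beside 1.75% and 2.01% of all rows. By the adjusted p 3 were lower and 0 higher, beside 11.7% and 20.9% of all rows. IL6, the cytokine that drives the acute phase response, was at 0.999, 0.9805 and 1.35 FPKM with the label AAV-PDGF-D, against 3.71, 2.81 and 3.06 FPKM with the label AAV-GFP. CEBPB, a transcription factor of the acute phase response, had a log2 fold change of -0.41 (adjusted p = 0.00824) and RELA, a subunit of NF-kappaB, one of -0.14 (adjusted p = 0.0785). RELA missed the adjusted p in 8 of the 19 other settings, with values up to 0.197. TNFRSF1A, the TNF receptor, had 0.13, or -0.0066 with respiratory chain scaling, and did not pass. The median of these 13 genes was -0.080.

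Markers of other cell types were read beside these values. Of 14 macrophage and microglia genes with a row, 1 was at 1 FPKM or more in every library, CD68, a lysosomal protein also found outside macrophages. The defining leukocyte marker PTPRC had a mean of 0.0315 FPKM and CD163 one of 0.0189 FPKM, as low as C1QB. The summed level of the 14 was 21.9 to 24 FPKM with the label AAV-PDGF-D and 19.6 to 21.3 FPKM with the label AAV-GFP, and CD68 made up most of it. CSF1R, the receptor of colony stimulating factor 1, averaged 0.697 FPKM with the label AAV-PDGF-D and 1.46 FPKM with the label AAV-GFP (log2 fold change -0.95). It reached the 1 FPKM minimum for a call only through the libraries labelled AAV-GFP, so its call as lower is not read as a result. Of all rows, 1.75% were called lower. The CSF1R call was lost under 3 of the 19 other settings, among them without AAV-GFP replicate 2 (-0.82) or AAV-GFP replicate 3 (-0.88). CD68 was higher by the adjusted p (0.20), as 20.9% of all rows were. It missed the adjusted p in 8 of the 19 other settings, with values up to 0.592.

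Levels of the 14 listed pigment epithelium genes differed widely. The keratins KRT8 and KRT18 were the most abundant, with means of 1277 and 769 FPKM. RPE65 and BEST1, which define the mature state of the pigment epithelium, were at 0.869 and 0.424 FPKM. LRAT and RLBP1 were at 0.145 and 2.12 FPKM. Of the 11 at 1 FPKM or more, the pigment genes PMEL and TYRP1 were called lower and 0 higher. That is 2 of 11, beside 1.75% of all rows lower and 2.01% higher. PMEL, which forms the fibrils of melanosomes, was at 36.3, 38 and 35.8 FPKM with the label AAV-PDGF-D, against 67.4, 54.7 and 76.7 FPKM with the label AAV-GFP. TYRP1, an enzyme of melanin synthesis, was at 13.2, 14.9 and 13.9 FPKM with the label AAV-PDGF-D, against 24.3, 19 and 31.6 FPKM with the label AAV-GFP. Neither overlapped between groups, and their log2 fold changes were -0.84 and -0.80. PMEL was called in every setting and TYRP1 in 18 of 19, missing without both libraries with hemoglobin (adjusted p = 0.102). By the adjusted p, 5 of 11 pigment epithelium genes at 1 FPKM or more were lower and 1, KRT8, was higher. The shares of all rows were 11.7% and 20.9%. KRT8 passed the adjusted p in 17 of the 19 other settings, with values up to 0.507.

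Among fibroblast genes 4 of 9 were lower by the adjusted p and 1 higher, and among pericyte and smooth muscle genes 3 of 9 were lower and 1 higher, beside 11.7% and 20.9% of all rows. The lower fibroblast genes were COL3A1, DCN, COL1A2 and LUM, with log2 fold changes of -0.58, -0.51, -0.42 and -0.21. LUM lay near the threshold (adjusted p = 0.0909 from limma) and was not followed through the other settings. THY1, a surface protein, was higher with 0.53, and COL1A1, a collagen chain, had -0.12 and did not pass. Of the pericyte and smooth muscle genes, NOTCH3, PDGFRB and the smooth muscle actin ACTA2 were lower with -0.58, -0.36 and -0.17. ACTA2 passed the adjusted p in 17 of the 19 other settings, with values up to 0.181. DES was higher with 0.26, also near the threshold (adjusted p = 0.0884 from limma) and not followed through the other settings. TAGLN, an actin-binding protein, had -0.10 and did not pass. Of 10 endothelial genes 1 reached 1 FPKM, KDR, a VEGF receptor, lower with -0.21 and past the adjusted p in 13 of the 19 other settings, while CLDN5 was at 0.418 FPKM. Of the 2 hepatocyte genes at 1 FPKM or more, SERPINA1 and TTR, 0 were called, beside 1.75% of all rows lower and 2.01% higher. SERPINA1 and TTR averaged 3.71 and 1.81 FPKM, and ALB, encoding albumin, 0.0696 FPKM. The part of these cell types in the complement values was not tested.

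Of the 11067 other named rows at 1 FPKM or more, those whose levels most resembled those of C1S over the 6 libraries were CSDC2, PALM and EIF1. Their Pearson correlations with C1S on the log2 scale were 0.999, 0.999 and 0.998, given as a description, since the points share their libraries and all 3 genes were also lower with the label AAV-PDGF-D. CSDC2, an RNA-binding protein, averaged 15.3 ± 1.06 FPKM with the label AAV-PDGF-D and 26.4 ± 2.07 FPKM with the label AAV-GFP (SD, n = 3 each). EIF1, a translation initiation factor, averaged 214 ± 9.21 FPKM with the label AAV-PDGF-D and 292 ± 8.93 FPKM with the label AAV-GFP.

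The direction of the 4 genes past the adjusted p did not depend on the settings tried, while the calls did. Over 19 other settings, which changed the pseudocount, filter, scaling, variance model, thresholds or libraries, the log2 fold change ran from -0.73 to -0.55 for C1S, -0.77 to -0.50 for C3, -0.67 to -0.46 for C1R and -0.56 to -0.35 for C1RL. The adjusted p was at most 0.088 for each of the 4 in every setting. C1S was called in 14 of them, C3 in 18, C1R in 3 and C1RL in 1.

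**Figure D4:**
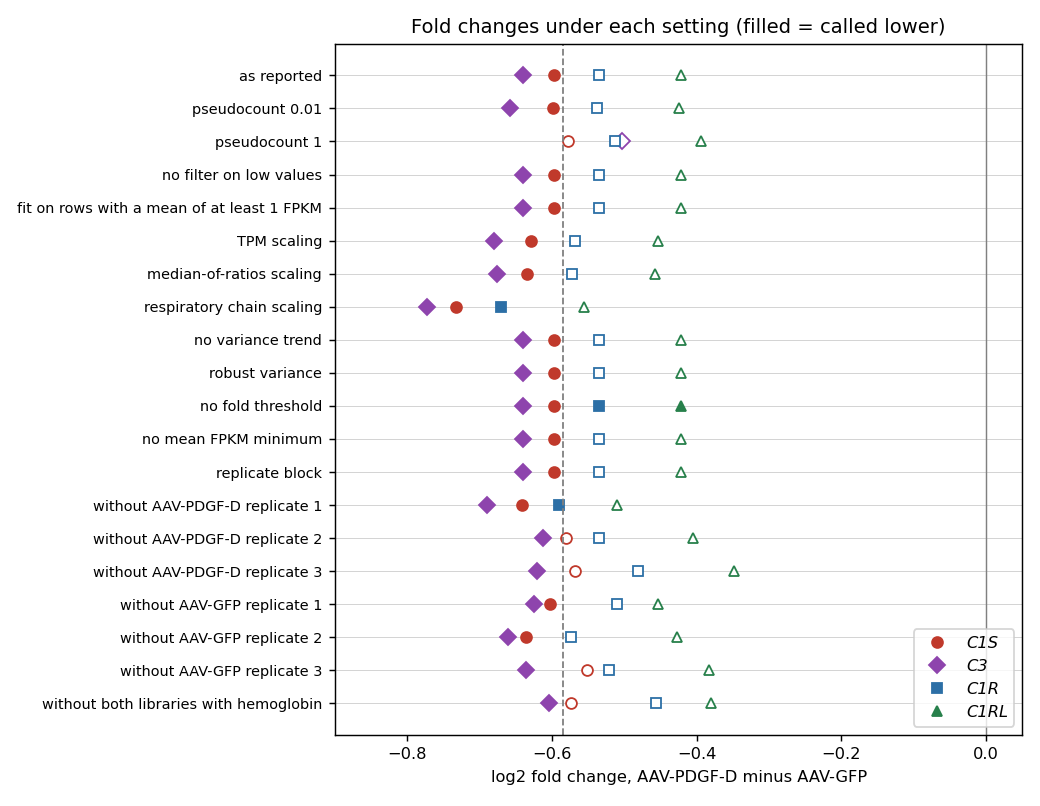
log2 fold change (AAV-PDGF-D minus AAV-GFP) of C1S, C3, C1R and C1RL as reported and under each of the 19 other settings, 1 row per setting; filled symbols mark a call and the dashed line 1.5-fold lower. All symbols lie between -0.77 and -0.35, and C1S crosses the dashed line to the right with a pseudocount of 1, without AAV-PDGF-D replicate 2 or 3, without AAV-GFP replicate 3 and without both libraries with hemoglobin.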

How the data were processed

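The authors deposited FPKM values per gene and library, made per the methods and the submitters' processing notes with STAR 2.4.2a on the mouse build mm10 and RSEM 1.2.29. The sources used here name neither a build nor an annotation for the human rows. The table holds no counts. Ratios of values under 0.2 FPKM between libraries gathered at a common step in only 11.7% to 20.5% of rows, so reads were not recovered and no count model was run.

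The fit used limma (version 3.58.1, R 4.3.3). FPKM plus 0.1 were taken to log2, a trend of variance with level was allowed, and the 13821 rows averaging 0.1 FPKM or more entered, with Benjamini-Hochberg adjustment over all of them. Calls followed the thresholds of the methods. The fit was tested on simulated data. The genes and lists were chosen with earlier results of these data known. Named are all 9 genes and the 3 rows most like the most abundant of them. Per other list, up to 4 called genes with the largest change and the 2 most abundant are named. Others are named where a count was small or to show levels within a list, after their values were seen. Some genes were left out of the lists and are not reported here. The alternatives are those of the closing section. No sequence is shown, since the reference used here is of mouse.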

Additional observations from a re-analysis of the deposited data

How the results depend on the processing

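As reported, 2 of the 6 eligible genes were called lower. There were 0 with a pseudocount of 1, 4 with no fold threshold, 1 without both libraries with hemoglobin, and 1 to 3 with 1 library left out (1 without AAV-PDGF-D replicate 2, AAV-PDGF-D replicate 3 or AAV-GFP replicate 3, and 3 without AAV-PDGF-D replicate 1). The calls moved for all rows too. As reported 200 rows were lower, against 110 with a pseudocount of 1 and 1341 with no fold threshold. There were 171 without both libraries with hemoglobin, and 140 to 232 with 1 library left out. By the adjusted p alone the number of complement genes was 4 lower and 0 higher in each setting. The summed FPKM differed by -0.52 on the log2 scale, and by -0.66 with respiratory chain scaling, which moved the median of all rows to -0.098 from 0.037 and called 3 of the 6 lower. That scaling gave 428 rows lower and 144 higher, against 200 and 230, and turned CD59 to -0.025, TNFRSF1A to -0.0066 and KRT18 to -0.036. CLDN5 and TTR, neither past the test, changed sign with 1 library left out (-0.31 to 0.097 for CLDN5 and -0.46 to 0.34 for TTR), and CLDN5 was 0.028 without both libraries with hemoglobin. The C1R to C1S difference of 0.061 was 0.12 without both libraries with hemoglobin, and 0.0305 to 0.0912 with 1 library left out. The causes of these moves were not tested.

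With the replicate number as a replicate block, 2 complement genes were called lower, beside 199 of 11444 rows, and 4 passed the adjusted p. Correlations of deviations from the group means were -0.20, 0.0039 and -0.13 between libraries sharing a number, so the numbers were not taken as pairs. Between libraries of different groups and numbers they ran from -0.19 to 0.29. The highest was between AAV-PDGF-D replicate 3 and AAV-GFP replicate 1, the libraries with hemoglobin, and its cause was not tested. Read depth is unknown, and C5, C1QB, MASP1 and C3AR1 lie where few reads can be expected.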
